A study of Mus musculus with 2 samples.

Results

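Hopx and Aldoc cells of the developing mouse brain were described from MERFISH, an imaging method that reads single RNA molecules in tissue by fluorescent barcodes. A cell was a member when it held at least 20 panel transcripts, a sum of at least 2 Hopx and Aldoc transcripts, at least 1 Sox9 or Lhx2 transcript, fewer than 2 Eomes transcripts, fewer than 2 Gad1 and Gad2 transcripts, and fewer Aldh1l1 and Olig2 than Hopx and Aldoc transcripts. Members were thus chosen by their measured counts of these genes. In all, 3357 of 156481 cells with at least 20 transcripts met this rule, among them 695 of the 55231 control cells and 2662 of the 101250 knockout (KO) cells. The 9 genes named in the rule were read out in the same cells, so their levels describe how the members were chosen and are not findings about them. The working name was cortical radial glia. Most members lay in bands around ventricle-like openings of the brain, but the rule does not separate the cortical wall from other walls of the ventricle, and the cells are called Hopx and Aldoc cells here.

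Radial glia are the stem cells of the embryonic brain. Their cell bodies line the ventricle, they divide there to give neurons directly or through Eomes-expressing intermediate progenitors, and late in gestation many turn to making astrocytes and other glia. Hopx encodes a homeodomain protein without DNA-binding ability that is known from radial glia and astrocytes, Aldoc the brain aldolase of glycolysis, Sox9 a transcription factor of neural stem cells and glia, and Lhx2 a transcription factor of cortical progenitors.

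Both sections were 10 µm coronal cryosections of fresh-frozen heads at E16.5, each from a single animal. The control carried Sst-Cre, which drives Cre recombinase from the somatostatin gene, and a Cre-dependent tdTomato reporter (Ssttm2.l(cre)Zjh/J crossed with B6.CgGt(ROSA)26Sortm14(CAG-tdTomato)Hze). The KO animal carried both of these as well as loxP-flanked Dnmt1 (B6; 129S-Dnmt1tm2Jae/J), the gene of a DNA methyltransferase. Cre is thus made in cells that express Sst, most of which are known as GABAergic neurons. Cells with at least 2 Gad1 and Gad2 transcripts were kept out of the members, but how many Sst cells this removed was not counted. Sst stood at 77.8 CPM (counts scaled to 1000000 panel transcripts of the cells concerned) in control members and 105 CPM in KO members, from 2 and 33 counts, against 872 and 844 CPM in the other cells. Dnmt1 was not on the panel of 500 genes, so the deletion could not be checked. With 1 section per group, genotype, animal, section plane and any difference in imaging cannot be told apart, no test was possible, and each interval below is a 95% interval that covers counting error only.

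The KO section was read more deeply. It held 16461956 panel molecules against 3491636 in the control, and cells with at least 20 transcripts held a median of 109 transcripts in the KO and 34 in the control. The minimum of 20 transcripts was reached by 50.9% of the 108533 segmented control cells but by 92.0% of the 110004 KO cells. Members held a median of 34 transcripts in the control and 99 in the KO, and their segmented volume had a median of 1300 µm3 in the control and 804 µm3 in the KO. Because the rule counts transcripts, each share was also computed after the KO counts had been thinned at random to 21.4% of their transcripts, the ratio of the mean depths of the segmented cells.

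The way members met the rule differed between the sections, in part also after thinning. In the control 54.0% of members held exactly 2 Hopx and Aldoc transcripts, the lowest number allowed, against 26.0% in the KO and 50.5% in the thinned KO. Just outside this threshold, with exactly 1 such transcript, lay 896 control, 1383 KO and 760 thinned KO cells. Members with Aldoc but no Hopx made up 54.0% in the control, 36.6% in the KO and 42.8% in the thinned KO, those with both genes 37.8%, 54.8% and 45.0%, and those with Hopx alone 8.20%, 8.60% and 12.2%. Sox9 was present in 99.1% of control and 97.0% of KO members, whereas Lhx2 was present in 9.35% and 35.5%, so Sox9 carried that criterion almost alone. These presence shares are as deposited and rise with depth. In CPM, Lhx2 of members within the brain had a log2 ratio of KO over control of 0.73 [0.38, 1.10].

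The share of cells that met the rule was higher in the KO as deposited, while after thinning this depended on how the counts were thinned. It was 1.26% [1.17, 1.35] in the control and 2.63% [2.53, 2.73] in the KO, a log2 ratio of 1.06 [0.94, 1.19], and 757 cells or 1.25% [1.16, 1.34] of the thinned KO, a log2 ratio of -0.01 [-0.16, 0.14]. In 20 further random thinnings the KO share lay between 1.22% and 1.34%. When every cell of both sections was thinned to 25 transcripts and shallower cells were left out, 0.820% of control and 0.978% of KO cells met the rule, a log2 ratio of 0.25 [0.08, 0.43]. The size of this difference thus followed the treatment of depth.

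The limit on Eomes, the transcription factor of intermediate progenitors, also removed cells unequally. It left out 16 of 711 otherwise matching cells in the control (2.25%), 1260 of 3922 in the KO (32.1%) and 68 of 825 in the thinned KO (8.24%). Without it the log2 ratio of shares was 1.59 as deposited and 0.08 after thinning. As a measure of stray molecules, cells with at least 3 transcripts of the microglial genes Csf1r, Cx3cr1 and C1qa, which should not be radial glia, met the rule in 0 of 792 cases in the control (upper bound 0.465%), 30 of 2186 in the KO (1.37%) and 2 of 617 in the thinned KO (0.324%). In the KO this background of 1.37% stands beside the 2.63% of all cells, and after thinning 0.324% stands beside 1.25%.

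Members lay in thin bands rather than across the section. In the control they lay around openings in the tissue, and in the KO they formed curved bands along the ventricle-like gaps, with Eomes cells (at least 2 Eomes and fewer than 2 Gad1 and Gad2 transcripts) on their outer side. Within the brain lay 687 of 695 control and 2537 of 2662 KO members. The 125 KO members outside it lay largely in a strip and in clusters near the edge of the section and held Dcn, a matrix proteoglycan of connective tissue, at 21827 CPM, Wnt7b at 19212 CPM and Egln3 at 16834 CPM. The values of Dcn and Wnt7b are far from those of all KO members, where Dcn stood at 1937 CPM and Wnt7b at 3770 CPM. Aldoc stood at 27119 CPM in all KO members against 7941 CPM in those outside the brain. With all cells outside the brain left out, members and others, the log2 ratio of shares was 0.96.

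**Figure D1:**
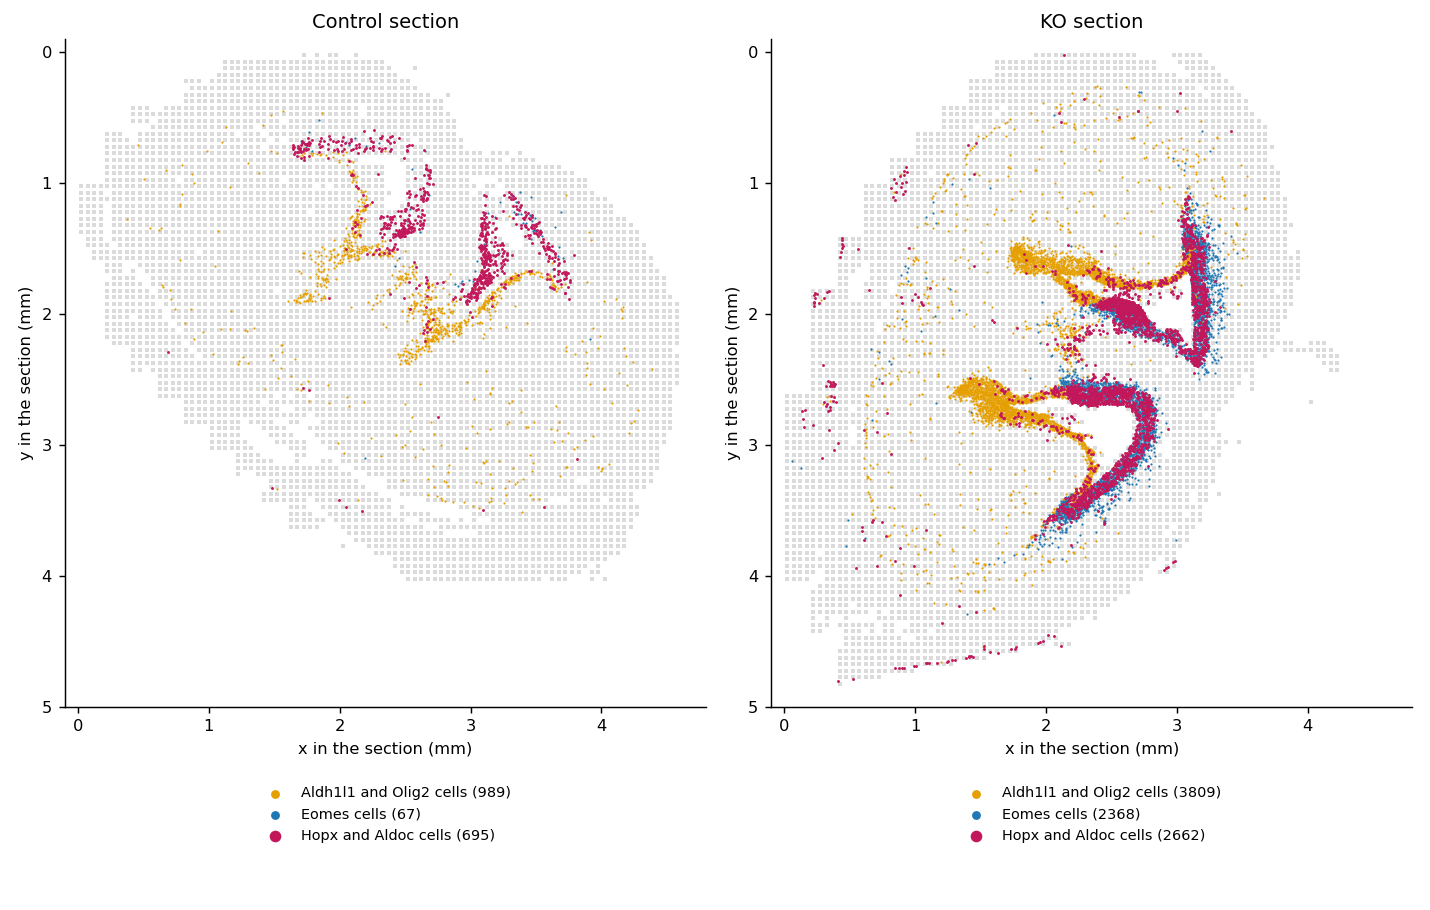
Positions of Hopx and Aldoc cells (crimson), Eomes cells (blue) and cells of the astrocyte and oligodendrocyte precursor genes Aldh1l1 and Olig2 (orange), in mm within each section; grey squares mark tissue with cells of at least 20 transcripts. The 695 control and 2662 KO members lie in bands around openings in the tissue, apart from a strip along the lower edge and clusters at the left edge of the KO section.

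Distance to the nearest cell-free gap, an area of under 30% of the median cell density that stood in for the ventricle, put numbers on this. The median distance was 186 µm for control members against 1045 µm for all control cells in the brain, and 100 µm for KO members against 498 µm for all KO cells. Within 100 µm of a gap lay 103 of 687 control members but only 2.11% of all control cells, and 52.1% of KO members but only 7.89% of all KO cells. In both sections members were thus several times more common beside a gap than cells at large. Eomes cells were also more common there, with 20.9% within 100 µm of a gap in the control and 34.9% in the KO. Aldh1l1 and Olig2 cells were so in the KO (39.7%) but not in the control (0.511%). In the KO both groups lay there less often than members. The gaps differ in number (4 in the control, 5 in the KO) and in area (0.0898 and 0.363 mm2), so these distances can be compared within a section and not between sections.

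**Figure D2:**
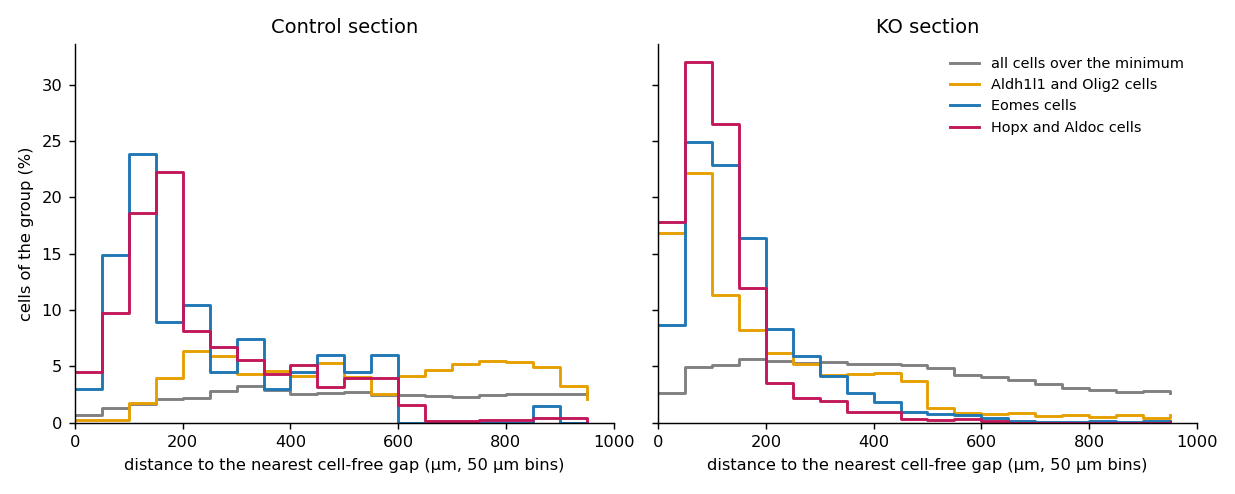
Share of each group of cells (y, percent) by distance to the nearest cell-free gap (x, µm, bins of 50 µm) in the control (left) and the KO (right). Hopx and Aldoc cells peak within 200 µm of a gap in both sections, while all cells over the minimum (grey) spread over the whole range.

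Members were also close to each other. The median distance to the next member was 14.1 µm in the control and 9.11 µm in the KO, and 95.5% and 97.8% of members had another member within 50 µm, against 11.3% and 19.8% of all cells in the brain. Other groups clustered too: 85.4% of control Aldh1l1 and Olig2 cells and 52.2% of control Eomes cells had another of their kind within 50 µm. Only control values are given for these groups, and the 67 control Eomes cells in the brain were far fewer than the 687 control members. The shares therefore do not rank the groups by clustering. An Eomes cell lay within 50 µm of 33.3% of control members, 87.5% of KO members and 76.9% of thinned KO members, against 3.34%, 18.6% and 8.57% of all cells in the brain, so Eomes cells were also more common around KO cells at large. The cells around members held Eomes at 4079 CPM in the control and 9883 CPM in the KO, against 552 and 1207 CPM over the whole brain area, and Top2a, a topoisomerase of dividing cells, at 47915 and 77623 CPM against 10444 and 17306 CPM. Gad1 and Gad2, the enzymes that make the transmitter GABA, stood at 1118 and 1982 CPM around members against 14584 and 15187 CPM over the brain. Other members, which the rule limits in Eomes, Gad1 and Gad2, made up 27.6% (control) and 36.4% (KO) of these neighbours. With members left out on both sides, a choice made after the data had been seen, the surroundings held Eomes at 4591 and 13583 CPM against 508 and 1162 CPM, Top2a at 48515 and 69226 CPM against 9760 and 15314 CPM, and Gad1 and Gad2 at 1403 and 2853 CPM against 14803 and 15605 CPM. The other cells around members were thus higher in Top2a and Eomes and lower in Gad1 and Gad2 than other cells of the brain. This was not particular to members. With members counted in, cells around control Eomes cells held Eomes at 6064, Top2a at 44539 and Gad1 and Gad2 at 1818 CPM. Around control Aldh1l1 and Olig2 cells these stood at 393, 38277 and 6747 CPM, so Eomes was not higher there.

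Single molecules of the rule's own genes were also counted without regard to cells, as a description, since part of them are the members' own. Of the molecules inside the brain, 23.5% of Hopx in the control and 47.2% in the KO lay within 100 µm of a gap, and 14.9% and 49.0% of Aldoc, against 2.80% and 8.76% of all panel genes. The sections held 1993 (control) and 14414 (KO) Hopx molecules, of which 26.7% and 34.5% lay in members, and 6409 and 30359 Aldoc molecules, of which 22.0% and 28.0% did. From 20.4% to 24.7% of them lay outside any segmented cell. Cells with fewer than 20 transcripts held 18.9% of Hopx and 25.4% of Aldoc molecules in the control but 0.319% and 0.320% in the KO, so the minimum kept many more Hopx and Aldoc molecules out of the control members. As CPM of all panel molecules of a section, Hopx stood at 571 in the control and 876 in the KO, and Aldoc at 1836 and 1844. These values include the section's non-neural tissue.

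A cortical outline drawn from 5 pallial and 12 subpallial genes covered mainly the cortical plate, the layer of newly placed neurons, and ended short of the ventricle, so it held only 159 control and 439 KO members. They made up 1.33% of its control cells and 1.98% of its KO cells, a log2 ratio of 0.58 [0.32, 0.85], which was -0.16 after thinning. Their median relative depth, measured from the pial surface (0) inwards (1), was 0.895 in the control and 0.864 in the KO, against 0.566 and 0.560 for all cells of the outline. The inner 2 of 10 depth bins held 56.6% and 56.7% of these members and 20.5% and 20.6% of all outline cells. This came from 1 hemisphere of each section. In control hemisphere 2, 90 of 156 members lay in the inner bins, against 24.6% of its cells, and in KO hemisphere 1, 245 of 315 did, against 24.7%. Control hemisphere 1 held only 3 members, 0 of them there, and in KO hemisphere 2 only 4 of 124 lay there (3.23%), against 13.8% of its cells, with a median depth of 0.558 against 0.514. The position towards the inner edge was thus not shared by both hemispheres of the KO.

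Genes outside the rule were compared between members and all other cells of the same section, which include skin, bone and other tissues of the head. Of 234 genes outside the rule that were at or above the median CPM of the panel and had a count in control members, 23 were at least 2-fold higher in members in both sections (9.83%) and 116 at least 2-fold lower (49.6%). Of the 25 genes listed for radial glia and progenitors, 9 were on the panel outside the rule, and 7 of these 9 were at least 2-fold higher in both sections, with a median log2 ratio of 2.46 in the control and 2.67 in the KO, beside medians of -1.37 and -1.08 over all 234 genes. The 3 genes Gfap, Fgfr3 and Aqp4 lay below the panel median and so were not among the 234. These genes were read in the cells that the rule chose, so this describes the members and does not test their name.

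Mfge8, a secreted glycoprotein known from radial glia and astrocytes, was the most abundant gene of this list in members, at 53326 CPM in the control and 43495 CPM in the KO, log2 ratios over other cells of 2.78 and 2.83. Bcan, a matrix proteoglycan, stood at log2 ratios of 3.23 and 3.04, and Gfap, the intermediate filament of astrocytes, at 4.23 and 3.19, although only 29 Gfap counts lay in control members. Creb5, a transcription factor of the CREB family, reached 2.46 and 2.85, Fgfr3, a fibroblast growth factor receptor, 2.23 and 2.67, and Ednrb, an endothelin receptor, 1.78 and 2.30. The water channel Aqp4 reached 2.52 and 1.62 from only 7 control counts. The other members of the list were not higher: Wnt7b, a secreted Wnt ligand, had log2 ratios of -0.51 and -0.30, and the growth factor receptor Egfr -1.41 and -0.20.

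Outside that list, the genes with the highest ratios in both sections included Chd7, a chromatin remodeller of neural progenitors, at log2 ratios of 2.75 in the control and 2.33 in the KO, Egln3, an oxygen-sensing prolyl hydroxylase, at 2.31 and 2.47, and the membrane glycoprotein Tpbg at 2.49 and 2.05. Ccdc80 reached 1.97 and 2.09, the transcription factor Sox6 1.74 and 1.97, the cadherin Cdh20 1.71 and 2.02, and the receptor phosphatase Ptpru 1.70 and 1.77. All of these lay above 2-fold in both sections.

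Genes of the cortical layers were at least 2-fold lower as often as the 49.6% of all 234 genes. Of 6 deep-layer genes, 3 were at least 2-fold lower in members in both sections, with Tbr1, a transcription factor of early-born neurons, at log2 ratios of -2.16 and -1.47 and Bcl11b, of subcortical projection neurons, at -3.30 and -2.86. Fezf2, which is known from deep-layer neurons and also from cortical progenitors, was the exception at 1.34 and 1.22. Ntsr1, at -1.81 and -2.20 with only 5 counts in control members of the brain, was the third gene below. Nr4a2, at -0.93 and -0.67, and Foxp2, at -0.94 and -1.70 from 4 control counts, did not pass in both sections. Of 4 upper-layer genes, 2 were at least 2-fold lower, the transcription factors Cux2 at -1.38 and -1.39 and Pou3f1 at -1.39 and -1.73, while Pou3f2, also known from progenitors, stood at 1.30 and 0.91 and Rorb at -0.57 and -0.23. Of the 3 panel genes listed for intermediate progenitors and new neurons, the somatostatin receptor Sstr2 was higher at 1.95 and 1.10, the netrin receptor Unc5d stood at -0.97 and -0.09, and Cd24a, a surface glycoprotein of immature neurons, was lower at -1.20 and -1.10.

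**Figure D3:**
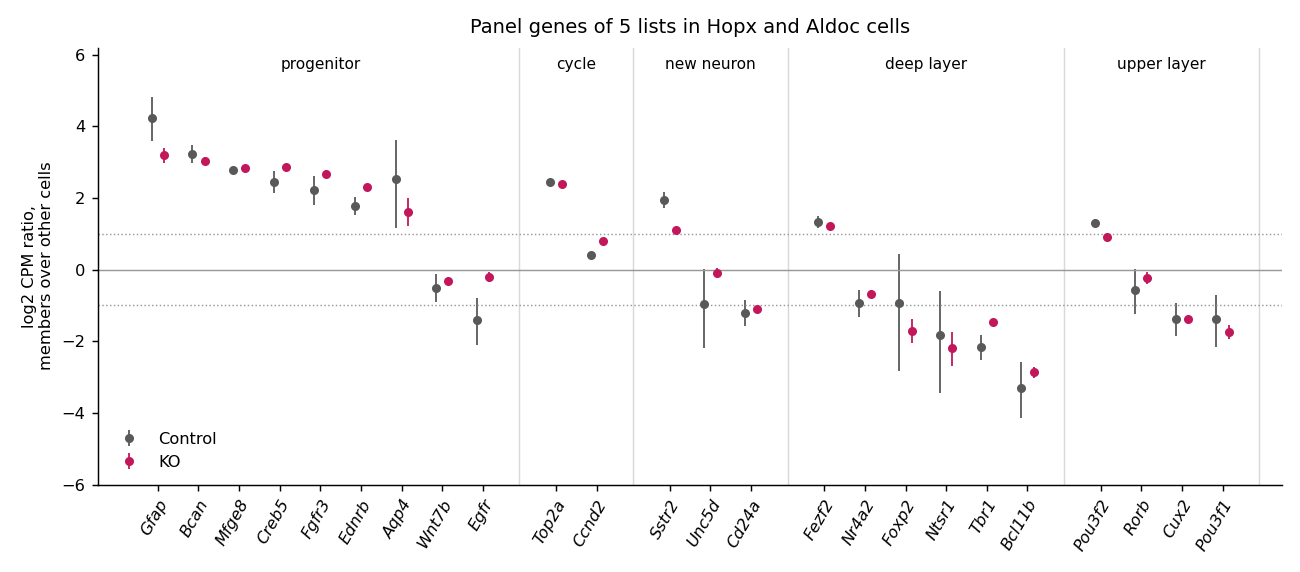
Log2 ratio of CPM in Hopx and Aldoc cells over all other cells of the section (y) for the panel genes of 5 lists (x), in the control (grey) and the KO (crimson); bars are 95% counting intervals and dotted lines mark 2-fold. Of 9 progenitor genes, 7 lie above the upper line in both sections, and most layer genes lie below 0.

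Most members held Top2a. A transcript of it was present in 71.9% of control members, 90.4% of KO members and 83.6% of thinned KO members. With each cell thinned to 25 transcripts the shares were 64.4% and 74.8%, against 14.9% and 21.3% of other cells. Microglial cells, the planned background, gave 18.3% and 27.3%. Cells with at least 3 Tbr1 transcripts, which are postmitotic and a background added later, gave 1.47% and 2.26%. Eomes cells and Aldh1l1 and Olig2 cells are not set beside them here, so these shares do not set members apart from other progenitors. In CPM, Top2a had log2 ratios over other cells of 2.46 in the control and 2.39 in the KO. Ccnd2, a cyclin of the G1 phase, had ratios of 0.42 and 0.79 and did not pass 2-fold. Between sections Top2a was higher in KO members by a log2 ratio of 0.62 [0.54, 0.69], and by 0.69 in the other cells of the KO.

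Of 7 genes listed for GABAergic neurons and the ganglionic eminences, where the limit on Gad1 and Gad2 bears on the members, 5 were at least 2-fold lower in members in both sections, beside 49.6% of all 234 genes: Lhx6, a transcription factor of cortical interneurons, at log2 ratios of -3.37 and -3.07, Dlx1 at -2.39 and -2.46, Isl1 at -1.18 and -2.34, Npas1 at -1.10 and -1.26 and Ebf1 at -5.84 and -4.19. In the brain, Npas1 and Ebf1 had only 5 and 1 counts in control members. Sp8, a transcription factor also known from progenitors of the forebrain, was higher at 2.40 and 1.56, and Meis2 stood at 0.81 and 0.57. Of 4 genes listed for oligodendrocyte precursors, where the limit on Olig2 bears on the members, Bcan was higher and Pdgfra, a growth factor receptor, lower at -3.28 and -2.04. Olig1, the partner of Olig2, stood at -0.19 and 0.28, and Gpr17 had 0 counts in control members. The vesicular glutamate transporters of projection neurons stood at -3.83 and -1.93 for Slc17a7, from 3 control counts, and at 0.20 in both sections for Slc17a6. Of the Cajal-Retzius genes, Reln stood at -2.21 and -1.80 and Ndnf at -1.33 and -0.62.

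Markers of blood vessels, microglia and connective tissue were often lower in members, as were 49.6% of all 234 genes. In both sections 2 of 3 microglial, 4 of 4 endothelial, 3 of 4 mural and 4 of 6 connective tissue genes were at least 2-fold lower, and 0 of them higher. The connective tissue genes Efemp1 and Thbs2 had 0 counts in control members. Transcripts of these 4 groups of markers were rare in members but present. No control member and 30 KO members (1.13%) held at least 3 microglial transcripts, 5 and 63 held at least 3 endothelial ones, 2 and 47 mural ones, and 1 and 67 connective tissue ones, the last of these 2.52% of KO members against 17.1% of other KO cells. These numbers, and those of Tbr1 and Htr2c below, are as deposited and rise with depth, so they are not compared between sections. Summed CPM in control and KO members was 778 and 1080 for microglial and 2063 and 2454 for endothelial genes. It was 1674 and 2243 for mural and 1440 and 3403 for connective tissue genes. In other cells these sums were, in the same order, 3202 and 2287, 6088 and 6397, 5156 and 5401, and 27729 and 25099. At least 3 Tbr1 transcripts were found in 5 control and 140 KO members (0.719% and 5.26%), against 7.10% and 19.8% of other cells. Htr2c, the serotonin receptor of the choroid plexus, was the only panel gene listed for ependymal and choroid plexus cells. It went the other way and was at least 2-fold higher in members in both sections, at log2 ratios of 1.08 and 2.32. Its CPM was 1012 in control members against 480 in other cells, and 1973 against 395 in the KO. At least 2 of its transcripts were found in 6 control members (0.863%) and 50 KO members (1.88%), above the 0.411% and 0.523% of other cells. Their part in the ratios of members was not tested.

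Members differed among themselves by which rule gene they held. Among genes picked after their values had been seen, in KO members with Hopx alone Htr2c stood at 12931 CPM, Lmx1a, a transcription factor of the cortical hem, at 1381 CPM and Tbr1 at 10201 CPM, against 39.4, 59.1 and 5218 CPM in those with Aldoc alone. Rspo1, a Wnt signal enhancer also known from the hem, stood at 220 and 187 CPM. In the control, Htr2c was higher in members with both genes (21 counts, 2057 CPM) than in the 57 with Hopx alone (1 count, 461 CPM) or in those with Aldoc alone (4 counts, 300.4 CPM). Control members with Hopx alone and with Aldoc alone held Lmx1a at 923 and 375 CPM, Rspo1 at 2307 and 751 CPM and Tbr1 at 3692 and 2478 CPM, from 2 to 33 counts each. The Htr2c pattern of the KO was thus not found in the control.

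Members also differed by their surroundings, a split chosen after the values had been seen. Each section's members in the brain were divided at the median Eomes level of the cells within 50 µm, 4213 CPM in the control and 10896 CPM in the KO, which gave 342 Eomes-rich and 345 Eomes-poor members in the control and 1268 and 1269 in the KO. Among 40 genes outside the rule with at least 100 counts in members of each section, 2 were at least 2-fold higher on the Eomes-rich side in both sections (5%) and 7 at least 2-fold lower (17.5%), and 34 had the same sign in both sections.

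Of the 7 genes on the Eomes-poor side, which were picked for being lower in both sections, Sulf2, an enzyme that trims heparan sulfate, had log2 ratios of rich over poor of -3.13 in the control and -2.87 in the KO, the growth factor gene Igf2 -2.68 and -2.89, and the glutamate receptor Grm3 -2.40 and -2.18. Vcan, a matrix proteoglycan, stood at -1.68 and -1.79, Prox1, a transcription factor of dentate granule neurons, at -1.46 and -1.53, the signalling protein Bmp7 at -1.20 and -1.45, and the phosphatase Ptprm at -1.12 and -1.28.

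On the Eomes-rich side stood 2 transcription factors, Meis2 at log2 ratios of 1.52 and 1.08 and Pou3f2 at 1.35 and 1.15, with Sstr2 close behind at 1.59 and 0.97. Mfge8, at -0.11 and 0.25, and Top2a, at 0.11 and 0.28, lay near 0. Among rarer genes, Lmx1a stood at 0 CPM in Eomes-rich and 910 CPM in Eomes-poor control members and at 44.4 and 533 CPM in the KO, and Rspo1 at 82.8 and 2046 CPM and at 118 and 660 CPM. The part of molecules from neighbouring cells in these ratios was not tested.

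**Figure D4:**
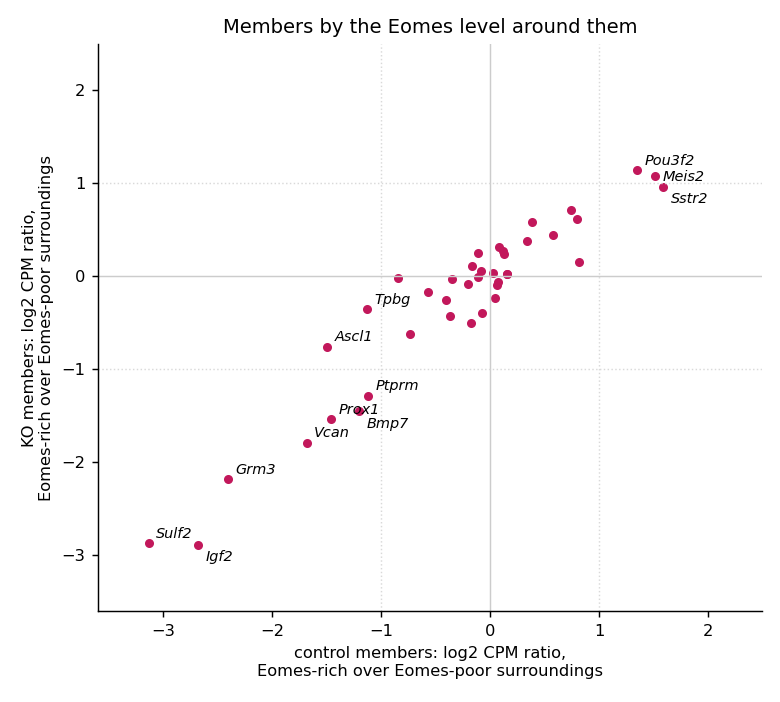
Log2 CPM ratio of members in Eomes-rich over Eomes-poor surroundings in the control (x) and the KO (y) for 40 genes with at least 100 counts in members of each section; dotted lines mark 2-fold. Sulf2, Igf2 and Grm3 lie lowest in both sections, and Pou3f2, Meis2 and Sstr2 highest.

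Beside members lay 2 groups of cells that shared part of the rule. Eomes cells numbered 67 in the control and 2368 in the KO, and 989 control and 3809 KO cells held at least 2 Aldh1l1 and Olig2 transcripts, no fewer than of Hopx and Aldoc, with the same limits on Sox9 or Lhx2, Eomes and Gad1 and Gad2. In the thinned KO these groups numbered 312 and 767, which is below the control for the latter group but not for Eomes cells. The Aldh1l1 and Olig2 cells lay farther from gaps than members in both sections, with medians of 673 and 146 µm. Among genes picked after their values had been seen, members held more Sstr2 than these cells, with log2 ratios of 4.16 in the control and 2.32 in the KO, more Fezf2 (2.68 and 2.63), more Sema5a, a guidance protein (2.02 and 1.72), more Ccdc80 (1.93 and 1.77) and more Nfix, a transcription factor of late progenitors (1.36 and 1.45). Ednrb was lower in members, at -1.19 and -0.97. Sstr2 stood at 7162 and 6835 CPM in members against 26107 and 23622 CPM in Eomes cells, so its level in members lay between those of both groups.

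Expression was then compared between KO and control members. Of the 234 genes, 56 were at least 2-fold higher in KO members (23.9%) and 5 at least 2-fold lower (2.14%), with a median log2 ratio of 0.36 over all of them. After the KO had been thinned, 32 were higher and 26 lower, with a median of 0.01 (with the ratios centred on their median instead, 36 and 18), and 28 of the higher and 4 of the lower genes were shared with the counts as deposited. The excess of higher over lower genes was thus largely gone after thinning. The median gene had 15 counts in control members and 276 in KO members, so counting error in the control set the precision.

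The highest and lowest ratios rested on few control counts. Cxcl14, a chemokine, had 3 control and 259 KO counts and a log2 ratio of 2.82 [1.26, 5.11], and the early-response gene Junb 3 and 242 counts and 2.72 [1.16, 5.01]. Gabra3 stood at 2.66 [0.14, 7.98], Ebf1 at 2.62 [0.10, 7.94], Sphkap at 2.48 [-0.05, 7.80] and Penk at 2.46 [-0.07, 7.78], each from a single control count. At the other end, Tnr stood at -1.61 [-3.24, 0.43], Elfn1 at -1.42 [-2.62, 0.01], Drd1 at -1.29 [-3.11, 1.14], Mc4r at -1.07 [-2.33, 0.47] and Chrna2 at -0.97 [-1.70, -0.17]. Most of these intervals reached 0 or came close to it. Without the members outside the brain, Cxcl14 kept 80 KO counts and stood at 1.20 [-0.40, 3.51], Junb 83 counts and 1.84 [-0.06, 4.91], and Penk 25 counts and 1.11 [-1.50, 6.47], so most of the KO counts of Cxcl14, Junb and Penk came from members outside the brain.

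Among the 142 genes with at least 10 control counts, 19 were at least 2-fold higher and 1 lower in KO members as deposited, and 9 higher and 10 lower after thinning. Both ways, 8 were higher and 1 lower. They are named here because they passed both, a choice made after their values were seen. Cd24a had a log2 ratio of 2.26 [1.91, 2.63] and Epha3, an ephrin receptor of axon guidance, 2.13 [1.51, 2.82], but the other cells of the KO gave 2.16 and 1.83. Gpr161 and Kcnk2 likewise stood at 1.29 and 1.24 in members and 1.40 and 1.37 in other cells. Rnd3, a small GTPase, stood at 1.08 in members, and its CPM in other cells was 2922 in the control and 5851 in the KO. Luzp2 stood at 1.11 in members and 0.81 in other cells. St6galnac5, a sialyltransferase, at 1.51 [0.62, 2.59] from 10 control counts, and Phactr2, a regulator of actin, at 1.05 [0.53, 1.62] from 31 control counts had 0.63 and 0.13 in other cells, and whether members differ from other cells in this was not tested. Cspg4, a proteoglycan of oligodendrocyte precursors and pericytes, had a log2 ratio of -1.04 [-1.65, -0.36] in members, and its CPM in other cells was 2566 in the control and 1283 in the KO. Without the members outside the brain all 9 stayed past 2-fold, with Cd24a at 2.32, Epha3 at 2.17 and Cspg4 at -1.20. For most of these 9 genes the difference between sections was thus shared by cells at large.

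Progenitor genes gave 0 of 9 past 2-fold in either direction, beside 23.9% higher and 2.14% lower of all 234 genes, with a median log2 ratio of 0.20 between KO and control members. Creb5 stood at 0.60 [0.30, 0.91], Ednrb at 0.26 [0.01, 0.51], Mfge8 at -0.29 [-0.37, -0.21], Bcan at -0.71 [-0.96, -0.45] and Gfap at -0.71 [-1.28, -0.10]. Members' Hopx had a log2 ratio of -0.39 as deposited and 0.34 after thinning, and Aldoc -1.02 and -0.30, but both genes set who was a member at each depth. Dcn changed sides, with 2.18 as deposited, 0.23 within the brain and -0.76 after thinning, and 459 of its 608 KO counts lay in the 125 members outside the brain. Among the 7 genes with 0 counts in control members, Myh8 and Thbs2 had 121 and 98 counts in KO members, at least 3.30-fold and at least 2.67-fold higher against a floor of 3 counts over the control members, but only 11 and 35 of these lay in the brain, where Myh8 is under that floor and Thbs2 at it.

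**Figure D5:**
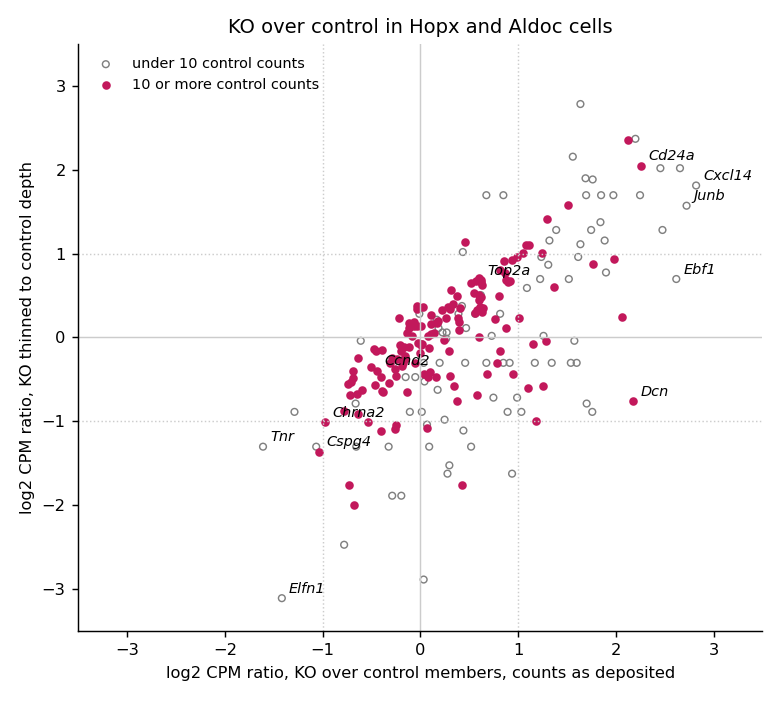
Log2 CPM ratio of KO over control members as deposited (x) and after thinning the KO to the control depth (y), for genes with at least 1 control count; filled points have at least 10 control counts and dotted lines mark 2-fold. Cd24a lies high on both axes, Dcn changes sign between them, and the highest points at right rest on few control counts.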

How the data were processed

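MERFISH had been run on a MERSCOPE instrument with a panel of 500 genes and 50 blank barcodes. The authors deposited unnormalized counts per gene and segmented cell, a list of single molecules, and cell metadata with positions, volumes and the intensity of stains, which was not used here. The segmentation model is not given in the sources used here. Counts were read with Python 3.11.15, numpy 2.4.6, pandas 2.3.3 and scipy 1.17.1, and plots drawn with matplotlib 3.10.9. Scripts were tested on simulated data.

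Blank barcodes were left out, 0.438% of transcripts in control and 0.352% in KO members. Summed counts were scaled to CPM. Sums carry exact Poisson intervals, shares Clopper-Pearson intervals and ratios exact conditional intervals. No doublet caller was run, since segmented cells are not droplets, and the sections shared 0 cell identifiers. Genes outside the rule whose mean CPM reached the panel's median were compared, and 7 of them with 0 control counts were left out of ratios. Named genes were those of the lists on the panel, of which 1 is not reported here and lists of other cell types are given mainly by counts, the 12 with the highest ratio over other cells, and the 6 highest and 6 lowest KO over control ratios. Members and lists were chosen with earlier results of these data known. KO counts were thinned binomially to 21.4%, the ratio of mean transcripts per segmented cell. The values per hemisphere and gene values within the brain, the gap distance, neighbours, brain area, split by surroundings and Tbr1 background were chosen after the data had been seen.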

Additional observations from a re-analysis of the deposited data

How the results depend on the processing

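With 1 section per group the animal was not varied, and the depth of the control limits what its members show. No paired analysis was possible because each group had a single section. Values are KO against control, and shares are log2 ratios.

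The share of cells meeting the rule, 1.06, was 1.33 and 1.83 with minimums of 10 and 50 transcripts, 1.75 with at least 3 Hopx and Aldoc transcripts, 0.25 with every cell thinned to 25 transcripts, and -0.00925 with the KO thinned to the control depth. Without the Eomes limit, chosen after the data had been seen, it was 1.59, and 0.0820 with thinning as well. Within the cortical outline the share, 0.58, was 0.99 and 1.63 with those minimums, 0.94 with at least 3 Hopx and Aldoc transcripts, -0.16 with the KO thinned, -0.0144 with every cell thinned, and 1.45 in an outline without Meis2 and Foxp1, also chosen after the data had been seen. Control hemisphere 1, with 3 members, gave 4.67 and 4.04 against KO hemispheres 1 and 2, and control hemisphere 2 gave -0.28 against KO hemisphere 2.

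Median relative depth differed by -0.03 and moved to 0.33 between the hemispheres 1 and to -0.35 between the hemispheres 2. The share in the inner depth bins differed by 0.116 percentage points and moved to 77.8 and -54.5 in those pairs and to 20.1 between control hemisphere 2 and KO hemisphere 1. The count of genes past 2-fold between sections, 61 of 234, was 22 of 160 genes with at least 10 counts in members of both sections. Those 160 were chosen by counts alone, without the limit at the panel median. The share of members with Aldoc alone differed by -17.3 percentage points, by -11.2 with the KO thinned and by -6.50 with every cell thinned. The genes higher in members than in other cells, 23, numbered 22 to 24, and 31 in the other set of 160 genes chosen by counts. The log2 ratio of shares with Top2a, 0.33, lay between 0.22 and 0.45. The causes were not tested, beyond what thinning itself changes.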
